A study of Mus musculus with 2 samples.

Results

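The iMPC cells that held RNA of both Pax7 and Dcn numbered 201 of the 9349 iMPC cells kept, 2.15% (95% exact Clopper-Pearson interval 1.87 to 2.46). A barcode was kept at about 8000 or more unique molecular identifiers (UMIs, each standing for 1 captured RNA molecule), 500 or more genes and at most 20% mitochondrial UMIs. Cells were chosen by their raw counts of 3 genes: a kept cell entered the group with at least 1 Pax7 UMI, at least 3 Dcn UMIs and at most 1 Myog UMI. The comparison groups were the Pax7 set, 1776 iMPC cells with at least 2 Pax7 UMIs, no Dcn UMI and at most 1 Myog UMI, and the Dcn set, 319 iMPC cells with at least 5 Dcn UMIs, no Pax7 UMI and at most 1 Myog UMI. Both libraries of the study together kept 15362 cells. The levels of Pax7, Dcn and Myog in these groups were fixed by that choice and are given as a description. Since whole profiles go with these genes, the comparisons with both sets are descriptions too.

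Both cultures carried the genotype Tg:Pax7-nGFP/C57BL6;DBA2, that is, a Pax7 reporter transgene on a mixed mouse background. One culture, MEF, was of embryonic fibroblasts, which are primary connective tissue cells, in MEF medium. The other, iMPC, was of induced myogenic progenitors that MyoD and a treatment abbreviated F/R/C had produced from fibroblasts of this kind, and it was kept in F/R/C medium. The series design text speaks of a stable iMPC clone, so the values describe 1 clone. There was 1 library of each culture and thus no replicate and no test. Intervals are at 95% and cover counting error alone. The iMPC and MEF libraries held 282903287 and 118541302 UMIs, and 16 barcodes of kept cells occurred in both libraries, 0 of them among the 201 cells. UMIs of Myod1 could come from the transgene or the cells' own gene, and RNA of the reporter gene was not analysed here.

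Pax7 is a transcription factor of satellite cells, the stem cells of skeletal muscle, which it helps to maintain. Myf5, a myogenic determination factor, and the cell adhesion protein Cdh15 (M-cadherin) serve here as further genes of muscle progenitors. Dcn encodes decorin, a small proteoglycan that binds collagen and is made by fibroblasts, as are the receptor Pdgfra and the transcription factor Twist2. Myog drives the differentiation of committed myoblasts. A droplet can show genes of 2 cell types because 1 cell expresses both, because it held 2 cells, or because free RNA entered it.

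The overlap between Pax7 and Dcn was laid out over all iMPC cells with at most 1 Myog UMI. Pax7 (ENSMUSG00000028736, chromosome 4, 139737062 to 139833528, minus strand) and Dcn (ENSMUSG00000019929, chromosome 10, 97479609 to 97518143, plus strand) have these positions in the GENCODE M21 annotation of GRCm38, and the values are sums over whole genes. Among the 201 cells Pax7 was counted 1 to 6 times with a median of 1, and Dcn 3 to 131 times with a median of 10. There were 111 cells with 1 Pax7 UMI, 56 with 2 and 34 with 3 or more. By Dcn, 48 cells had 3 to 4 UMIs, 61 had 5 to 11 and 92 had 12 or more. The group was therefore shallow in Pax7 and spread over more than an order of magnitude in Dcn.

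The share of cells with a Pax7 UMI was lower in each range of higher Dcn. Of the 4443 cells with no Dcn UMI, 65.2% held Pax7 (63.8 to 66.6). The share was 52.3% of 302 cells with 1 to 2 Dcn UMIs, 47.1% of 102 cells with 3 to 4, 40.4% of 151 cells with 5 to 11 and 28.7% of 321 cells with 12 or more (23.8 to 33.9). Median depth lay between 17536 and 18752 UMIs per cell in all 5 ranges, and with each cell thinned to the minimum of about 8000 UMIs the share went from 42.7% to 14.6%. From the other side, 18.1% of 2063 cells with no Pax7 UMI had at least 3 Dcn UMIs, against 8.52% with 1 Pax7 UMI and 1.75% of the 627 cells with 4 or more.

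Pax7 in Dcn-rich cells stood above the levels of free RNA and of differentiated muscle cells. The 472 cells with at least 5 Dcn UMIs, taken without regard to Pax7, held Pax7 in 32.4% of cells (28.2 to 36.8) at a median depth of 17592.5 UMIs. Differentiated cells with at least 10 UMIs of Ckm, the creatine kinase of muscle fibres, held it in 14.7% of 658 cells at a median of 45892 UMIs. Thinned to that minimum, the shares were 17.6% (14.3 to 21.3) and 3.34% (2.11 to 5.02), and the MEF library gave 0.0372% of 5382 cells unthinned. Dcn itself was found in 6.99% of the Ckm-rich cells, 1.98% after thinning. Levels are given as CPM, the UMIs of a gene per 1000000 UMIs of the summed cells. Free RNA was read from 48846 barcodes of 200 to 600 UMIs, with a median of 430. Were a cell of the 201 cells' median depth to hold that many free UMIs, free RNA would amount to 0.336 CPM of Pax7. The 472 cells, which were not chosen on Pax7, stood at 27.3 CPM. The amount of free RNA in droplets with cells was not measured. The source of the Pax7 UMIs, whether the cell itself, free RNA or another cell in the droplet, was not tested.

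**Figure D1:**
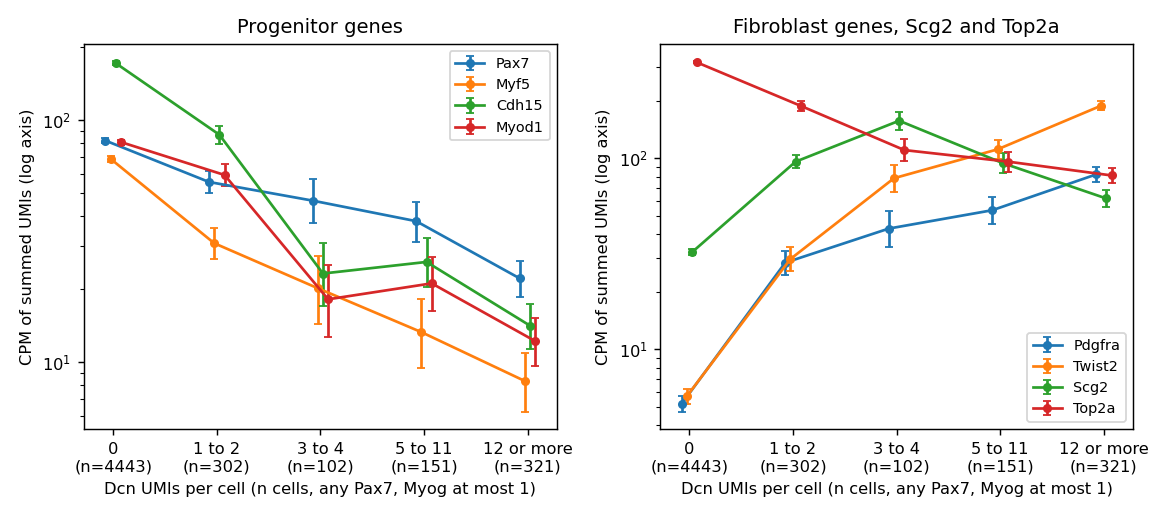
CPM of summed UMIs (log axis, points with 95% exact Poisson intervals) by the number of Dcn UMIs per cell, for iMPC cells with at most 1 Myog UMI and any Pax7. Pax7 went from 82.1 to 22.1 CPM while Cdh15 went from 171 to 14.1 CPM, so their lines cross, and Scg2 was highest at 3 to 4 Dcn UMIs.

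Pax7 and Cdh15 differed in how far their levels were lower in cells with more Dcn. Cdh15 (chromosome 8, 122847966 to 122867397) stood at 171 CPM in cells without Dcn, 86.8 CPM at 1 to 2 Dcn UMIs, 23.2 CPM at 3 to 4, 25.9 CPM at 5 to 11 and 14.1 CPM at 12 or more. Pax7 over the same ranges stood at 82.1, 55.4, 46.4, 38.1 and 22.1 CPM. Pax7 thus exceeded Cdh15 from 3 Dcn UMIs on, and lay under it below that. The ratio of Pax7 to Cdh15 UMIs was 0.479 in cells without Dcn (0.466 to 0.493) and 1.52 in cells with at least 5 Dcn UMIs (1.247 to 1.87), against 0.148 in free RNA and 0.0275 in Ckm-rich cells. The ratios differed 3.18-fold, 6.07-fold in cells of at most 20000 UMIs, and leaving out the 10% of cells with the highest doublet scores gave 4.85-fold. The same ratio was taken for 6 other genes. It was higher in the Dcn-rich cells for Myf5, at 2.75 against 1.19, and for Myod1, at 1.81 against 1.01. It was about equal for Des, the muscle intermediate filament, at 0.119 against 0.118, and for Heyl, at 2.10 against 2.22. It was lower for the adhesion molecule Vcam1, at 1.07 against 1.81, and for the receptor Notch3, at 0.696 against 1.35. The direction thus differed between progenitor genes. The choice of Cdh15 and of the Dcn ranges was made after values had been seen.

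In the 201 cells Cdh15 and Myf5 lay well below the Pax7 set, and Twist2 and Pdgfra lay well above it. Pax7 and Dcn, by which the cells were chosen, stood at 82.4 CPM (73.9 to 91.6) and 803 CPM (776 to 831). Cdh15 had a median of 0 UMIs per cell with a highest value of 11, and stood at 32.3 CPM (27.1 to 38.2), against 201 CPM in the Pax7 set and 11.1 CPM in the Dcn set. Myf5 (chromosome 10, 107482908 to 107486134) had a median of 0 and a highest value of 15 UMIs, and stood at 20.7 CPM (16.6 to 25.6), against 81.0 and 6.05 CPM. The fibroblast markers went the other way. Twist2 (chromosome 1, 91801461 to 91848028) had a median of 1 and a highest value of 39 UMIs per cell and stood at 118 CPM (107 to 129), against 2.35 CPM in the Pax7 set, 179 CPM in the Dcn set and 219 CPM in MEF. Pdgfra (chromosome 5, 75152292 to 75198215) stood at 56.1 CPM (49.2 to 63.8), against 2.24, 78.5 and 88.1 CPM. The cells therefore lay nearer to the Dcn set than to the Pax7 set for all 4 genes.

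Cell by cell, fibroblast markers without progenitor markers were the most frequent of 4 combinations. Pdgfra or Twist2 was found in 154 of the 201 cells (76.6%), and Myf5 or Cdh15 in 65 (32.3%). There were 104 cells (51.7%, interval 44.6 to 58.8) with only the fibroblast genes, 15 (7.46%) with only the progenitor genes, 50 (24.9%, interval 19.1 to 31.4) with both kinds and 32 (15.9%) with neither. Both kinds were found in 3.27% of the Pax7 set and 16.6% of the Dcn set (12.7 to 21.2). After thinning, only the fibroblast genes were found in 46.8% of the 201 cells (39.7 to 53.9). Both kinds were then found in 9.95% of them (6.18 to 14.9) and 6.58% of the Dcn set (4.12 to 9.89), and those intervals overlap.

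The genes were then compared 1 by 1 between the summed 201 cells, with 4149971 UMIs, and each set. At 50 CPM or more on the higher side, 422 of 3130 genes (13.5%) were at least 2-fold higher than in the Pax7 set and 265 (8.47%) at least 2-fold lower. Only 10 of 2843 genes (0.352%) were as much higher than in the Dcn set and 19 (0.668%) as much lower. Scaled by totals without mitochondrial and ribosomal protein genes, 491 genes were higher and 490 lower than in the Pax7 set, out of 4275 tested. Every CPM is larger under that total, so more genes reach 50 CPM, and every log2 ratio to the Pax7 set is shifted by -0.10. Over the 3033 genes tested under both totals the split was 369 higher and 331 lower. Against the Dcn set the split under that total was 22 and 24 of 3801 genes. Ribosomal protein genes made up 28.6% of UMIs in the 201 cells, 33.3% in the Pax7 set and 27.9% in the Dcn set.

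Among the genes highest against the Pax7 set were Crabp1 and Cyp26b1, which bind and degrade retinoic acid, Ptgs2, the inducible cyclooxygenase, and the matrix proteins Lum and Thbs2. Crabp1 stood at 2420 CPM in the 201 cells, 49.4 CPM in the Pax7 set and 3904 CPM in the Dcn set, a log2 ratio to the Pax7 set of 5.61 (5.54 to 5.69). It was counted in 95.02% of the 201 cells. Ptgs2 stood at 351, 7.32 and 570 CPM and Cyp26b1 at 142, 5.05 and 237 CPM. Mmp3 and Lum had the largest ratios, with log2 values of 7.52 and 8.68, but rested on few cells: 5 cells held 79.9% of the Mmp3 UMIs and 65.3% of those of Lum. Prl2c2 and Prl2c3, with log2 ratios of 6.83 and 6.73, belong to a family of near-identical genes between which reads can be split.

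The genes lowest against the Pax7 set included the imprinted genes Mest and Nnat, the transcriptional coregulator Cited1, Cdh15 and the receptor Fgfr4. Mest stood at 39.8 CPM (33.9 to 46.3) in the 201 cells, 538 CPM in the Pax7 set and 19.7 CPM in the Dcn set, and Nnat at 28.9, 330 and 11.4 CPM. Fgfr4, a fibroblast growth factor receptor of muscle progenitors, stood at 18.1 CPM, 107 CPM and 4.37 CPM. Cdh15 was lower by a log2 ratio of -2.63 (-2.89 to -2.39) and Fgfr4 by -2.57 (-2.92 to -2.24).

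The lists of genes described next were chosen with earlier results of these data known, and a gene counted in a list at 10 CPM or more on the higher side. Against the Pax7 set, 12.6% of the 8203 genes at that level were at least 2-fold higher and 8.86% lower, with a median log2 ratio of -0.00. Against the Dcn set 94 of 7903 genes were higher and 79 lower, with a median of 0.03. Of 18 genes of the myogenic stem and progenitor list, 10 were at least 2-fold lower than in the Pax7 set and 1 was higher, with a median of -1.14. Among them were Msc (musculin), at 4.82 against 45.8 CPM, Peg3, at 230 against 677 CPM, and the Notch targets Hey1 and Heyl, at 17.6 against 58.9 and 18.3 against 42.9 CPM. The gene that was higher was Fgfr1, a growth factor receptor that fibroblasts share, at 216 against 68.6 CPM. Others passed 2-fold in neither direction, among them Sdc4 at 243 against 222 CPM, Hes1 at 143 against 136 CPM and Itgb1 at 562 against 352 CPM. The list summed to 2043 CPM in the 201 cells, 3045 CPM in the Pax7 set and 1684 CPM in the Dcn set. Against the Dcn set 3 of 16 genes of that list were higher and 0 lower, with a median of 0.39. They were Cdh15, Myf5 and Fgfr4, with log2 ratios of 1.54, 1.78 and 2.05.

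Fibroblast genes showed the opposite order. Of 13 genes of the fibroblast regulator and surface list, 9 were at least 2-fold higher than in the Pax7 set and 1 was lower, with a median log2 ratio of 1.57, and against the Dcn set 0 of 14 passed 2-fold in either direction, with a median of -0.02. Pdgfrb stood at 183, 43.7 and 224 CPM in the 201 cells, the Pax7 set and the Dcn set, Thy1 at 484, 153 and 607 CPM, and Twist1 at 134, 48.9 and 107 CPM. The gene counted as lower was Heyl, which both lists hold. Of 20 fibroblast matrix genes 16 were higher than in the Pax7 set and 1 lower, with a median of 1.961. The 1 lower was Mgp, the matrix Gla protein, which stood at 499 CPM against 1661 CPM in the Pax7 set and 236 CPM in the Dcn set. Col3a1, a fibrillar collagen, stood at 2032, 574 and 2605 CPM and Col6a1 at 1494, 236 and 1785 CPM. Col1a1, the main chain of type I collagen, lay further down, at 238 CPM against 780 CPM in the Dcn set and 2289 CPM in MEF. Summed over the list, matrix genes in the 201 cells stood at a log2 ratio of -0.21 to MEF. Single genes differed more: of 22 matrix genes, 5 were at least 2-fold higher than in MEF and 8 lower. Over all 8518 genes at 10 CPM or more the shares were 13.4% and 13.8%.

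Proliferation genes were intermediate in the sum of the 201 cells, though parts of the group described below differed in them. Of 16 G2/M phase genes, 16 were at least 2-fold lower than in the Pax7 set, with a median log2 ratio of -1.43, and 9 were at least 2-fold higher than in the Dcn set, with a median of 1.06. Top2a, a topoisomerase of dividing cells, stood at 144, 418 and 59.5 CPM, and Mki67 at 78.8, 173 and 35.3 CPM. After thinning, Top2a was found in 21.4% (15.9 to 27.7) of the 201 cells, 62.7% of the Pax7 set and 10.97% (7.76 to 14.9) of the Dcn set. Of 13 S phase genes 10 were lower than in the Pax7 set, and 2 of 11 were higher than in the Dcn set. Of 8 myocyte genes 1 was lower than in the Pax7 set and 0 passed 2-fold against the Dcn set. Myh3, an embryonic muscle myosin, stood at 27.5, 29.3 and 30.1 CPM. Free RNA, reckoned as for Pax7 above, would amount to 20.7 CPM of Myh3. For Mylpf, another gene of the list, it would amount to 195 CPM, against 231 CPM in the 201 cells. Levels of these genes near that amount do not show expression by the cells. The lists of 5 glial, 5 endothelial, 5 immune and 5 epithelial genes summed to 7.23, 0.482, 2.65 and 0.241 CPM in the 201 cells, against 19.0, 0.672, 3.70 and 0.168 CPM in the Dcn set, and Sox10, Kdr, Ptprc and Krt14 were at 0 UMIs.

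A mixture of the Pax7 and Dcn sets was fitted to the summed profile, leaving out the 3 genes of the rule. The best mixture held the Pax7 profile at a weight of 0.180 (0.178 to 0.181) and the Dcn profile at 0.820. Over 2813 genes at 50 CPM or more, the 201 cells differed from the mixture by a median of 0.0868 in absolute log2 value, against 0.129 from the Dcn set alone and 0.444 from the Pax7 set alone. Adding the MEF library, or cells with at least 5 Myog UMIs and MEF, to the fit left the Pax7 weight at 0.180 and gave the added profiles almost no weight. Of the 3199 genes at 50 CPM or more in the higher of the sets, 427 (13.3%) were at least 2-fold higher in the Pax7 set. Of these, 416 lay between the sets in the 201 cells. The median place of the 427 genes was 0.165 of the way from the Dcn to the Pax7 level. Of the 545 (17%) higher in the Dcn set, 469 lay between and 76 beyond the Dcn set, with a median place of 0.220.

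The weight depended on the depth and the doublet score of the cells allowed in. It was 0.0892 with all sets held to at most 20000 UMIs per cell, 0.0714 without the 10% of cells with the highest doublet scores, and 0.161 without the cells called doublets. With the rule applied to thinned counts, 80 cells were left and the weight was 0.0701. With at least 2 Pax7 UMIs it was 0.279 in 90 cells. Within the group the weight of the sum was 0.0896 for cells with 1 Pax7 UMI, 0.231 with 2 and 0.356 with 3 or more. It was 0.324, 0.217 and 0.0958 for cells with 3 to 4, 5 to 11 and 12 or more Dcn UMIs. By Pax7 the median depth was 16836, 18063.5 and 21892 UMIs, and 2, 0 and 5 cells were called doublets. By Dcn it was 17329, 18794 and 17653 UMIs, with 4, 0 and 3 cells called. Pax7 and Dcn themselves were left out of the fit. At the borders of the rule, 26 cells with exactly 3 Dcn UMIs had a weight of 0.218 and 46 cells with 2 Dcn UMIs, just outside, 0.357. The 58 cells with 1 Myog UMI had 0.2501 and 16 cells with 2, just outside, 0.247.

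**Figure D2:**
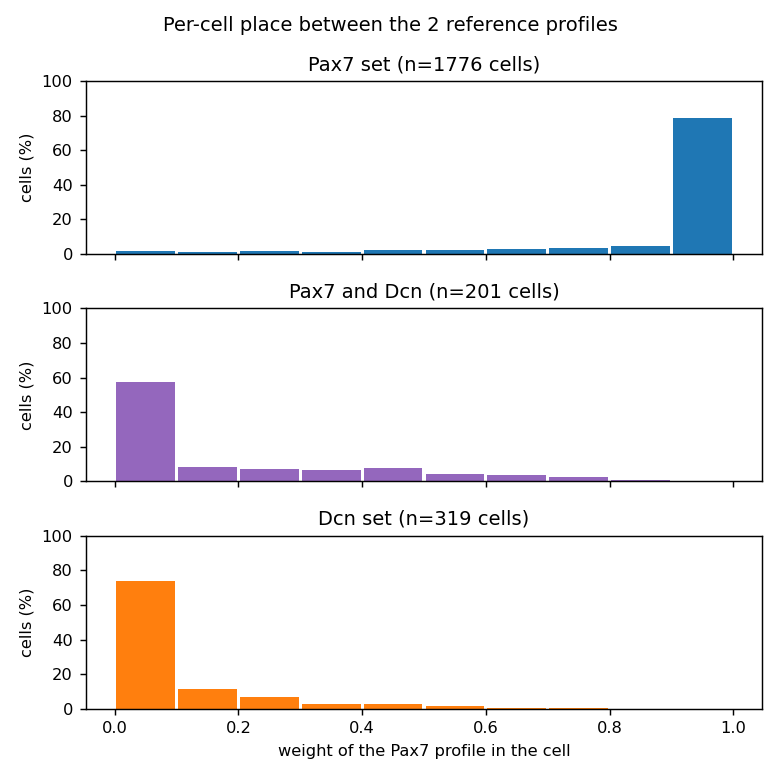
Share of cells (y axis, percent) by the weight of the Pax7 profile fitted to each cell (x axis, 0 for the Dcn profile and 1 for the Pax7 profile), for the Pax7 set, the Pax7 and Dcn cells and the Dcn set. Of the 201 cells, 57.7% lay under 0.1 and the rest spread thinly up to 0.92.

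Single cells were then placed between the profiles, each reference cell with its own counts taken out of its profile. The 201 cells had a median weight of 0.03, with quartiles of 0 and 0.35 and a highest value of 0.92. The Pax7 set had a median of 1 and the Dcn set of 0, with an upper quartile of 0.11. Most of the 201 cells, 141 (70.1%, interval 63.3 to 76.4), lay under 0.25, 55 (27.4%, 21.3 to 34.1) lay between 0.25 and 0.75, and 5 (2.49%) lay above 0.75. In the Dcn set 33 of 319 cells (10.3%, 7.23 to 14.2) lay between 0.25 and 0.75, and in the Pax7 set 206 of 1776 (11.6%). These are ranges of a score and not cell types: 14 of the 201 cells were within 0.05 of the lower limit and 5 within 0.05 of the upper. The share between the limits was 15.7% in cells of at most 20000 UMIs, 16.3% without the highest doublet scores, 13.8% with the rule applied to thinned counts and 37.8% with at least 2 Pax7 UMIs.

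Depth and doublet score moved with the weight. The 201 cells had a median of 17809 UMIs (quartiles 14253 and 25181), the Pax7 set 20400.5 and the Dcn set 17314. Within the 201 cells the median was 16113 UMIs under a weight of 0.25, 26292 between 0.25 and 0.75 and 33226 above 0.75. Across the 201 cells of the 1 library, Spearman's rho between UMIs and weight was 0.47 and Pearson's r 0.48, given as a description. Scrublet, which scores cells against simulated doublets, called 0 of the 141 cells under 0.25 (exact interval to 2.58%), 6 of the 55 between (10.9%, 4.11 to 22.2) and 1 of the 5 above. In all it called 7 of the 201 cells (3.48%, 1.41 to 7.04), 1.41% of the Pax7 set, 0.627% of the Dcn set and 3.71% of all kept cells. Cells that paired Ckm with Dcn served for comparison: 9 cells had at least 10 Ckm and at least 3 Dcn UMIs and no Pax7, with a median of 69846 UMIs, and 5 were called (55.6%, 21.2 to 86.3). Scrublet compares whole profiles, and its sensitivity for a pair of one Pax7 and one Dcn cell was not tested. The part of doublets in the 55 intermediate cells was likewise not tested.

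**Figure D3:**
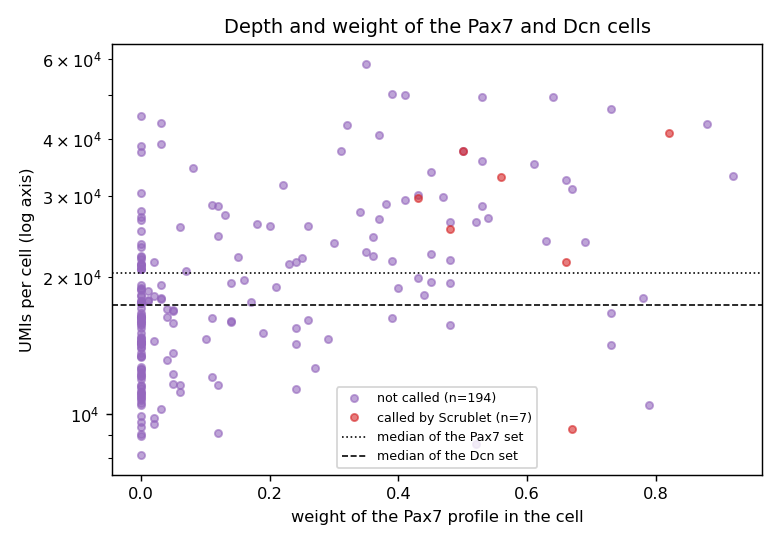
UMIs per cell (y axis, log scale) against the weight of the Pax7 profile (x axis) for each of the 201 cells, with the 7 cells called by Scrublet in red and the medians of the Pax7 and Dcn sets as lines. Cells under a weight of 0.25 had a median of 16113 UMIs and those between 0.25 and 0.75 of 26292, and the called cells lie between 0.43 and 0.82.

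In the 141 cells under a weight of 0.25, Pax7 was present while Cdh15, Myf5 and Fgfr4 stood at levels like those of the Dcn set. Their Pax7 level was 87.9 CPM (76.6 to 100.4), against 156 CPM (152 to 160) in the 1517 Pax7-set cells above 0.75. Cdh15 stood at 8.10 CPM (4.95 to 12.5), which overlaps the 7.72 CPM (5.52 to 10.5) of the 286 Dcn-set cells under 0.25, and far from the 220 CPM of the Pax7-set cells above 0.75. Myf5 stood at 7.70 CPM (4.63 to 12.02) against 5.02 CPM (3.28 to 7.36) in the Dcn-set cells, Fgfr4 at 4.05 against 3.28 CPM, and Myod1 at 10.9 against 7.34 CPM. All 4 intervals overlap, but the 4 genes were chosen after their values were seen. Cdh15, Myf5 and Fgfr4 rested on 20, 19 and 10 UMIs in the 141 cells, so overlap does not show equal levels. Of the 23 genes of the progenitor list other than Pax7, 19 had overlapping intervals between these groups and 4 were higher in the 141 cells. Among the 19 were Pax3, Calcr and Chodl, with 0 UMIs in both groups, so their overlap was certain. The same count over all genes was not made, so 4 of 23 cannot be set beside a general share. The 4 were Des, Fgfr1, Notch1 and Hes1. Des stood at 235 CPM (216 to 254) against 182 CPM (170.1 to 193), and Fgfr1 at 263 CPM (243 to 284) against 212 CPM (200 to 225). Notch1 stood at 55.5 against 39.8 CPM and Hes1 at 149 against 122 CPM. The whole list summed to 1839 CPM against 1653 CPM. The weight was computed from these genes among others, so a low weight itself favours low Cdh15, Myf5 and Fgfr4. Pax7 played no part in the weight, but every one of the 141 cells had at least 1 Pax7 UMI by the rule. Their median depth of 16113 UMIs was below the 16860.5 UMIs of the Dcn-set cells in the same range. Top2a stood at 38.5 against 31.5 CPM, and the G2/M list summed to 284 against 264 CPM.

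Summed over the 55 cells between 0.25 and 0.75, the progenitor genes Cdh15, Myf5 and Fgfr4 lay between the Pax7 and Dcn sets. So did the fibroblast genes Twist2 and Pdgfra. The weight was computed from these genes among others, so a middle weight itself favours middle levels. Not every listed gene lay between: Twist1, at 143 CPM, stood above both sets. Of the 55 cells, 30 held Cdh15, 23 Myf5, 31 Twist2 and 20 Pdgfra. The sums do not show whether single cells held both kinds. Pax7 stood at 72.3 CPM, Cdh15 at 56.7, Myf5 at 29.3, Fgfr4 at 34.5, Twist2 at 76.2 and Pdgfra at 32.6 CPM. Twist2 in these cells was 76.2 CPM (63.0 to 91.4) and was 7.35 CPM (4.96 to 10.5) in the 206 Pax7-set cells of the same range, while Cdh15 was 56.7 (45.4 to 69.9) against 81.3 CPM. Their Top2a level of 300 CPM compared with 38.5 CPM in the 141 cells, and the G2/M list summed to 1904 CPM against 284 CPM. G2/M genes also entered the weight, and their list summed to 2575 CPM in the Pax7 set and 453 CPM in the Dcn set. A middle weight thus itself favours higher levels of G2/M genes than a low weight does. The 33 Dcn-set cells of the same weight range, which hold no Pax7 UMI, also had high levels of these genes, with Top2a at 248 CPM (214 to 285), the G2/M list at 1717 CPM, Twist2 at 94.6 CPM and Cdh15 at 33.7 CPM. Their median depth was 21643 UMIs against 26292. In the 5 cells above 0.75, Cdh15 stood at 185 CPM and Twist2 at 0, at a median of 33226 UMIs per cell.

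Departures from the mixture were few. At least 1.5-fold above it were 10 of 2813 genes (0.355%), and 34 (1.21%) were as far below. Both directions together gave 44 genes, which became 112 in cells of at most 20000 UMIs, 56 in each direction, and 32 above and 69 below with the rule applied to thinned counts. Removing the highest doublet scores gave 68. Only 2 of 3258 genes (0.0614%) were at least 1.5-fold above both sets, and 0 were as far below both. The 2 were Ahr and Ly6a.

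**Figure D4:**
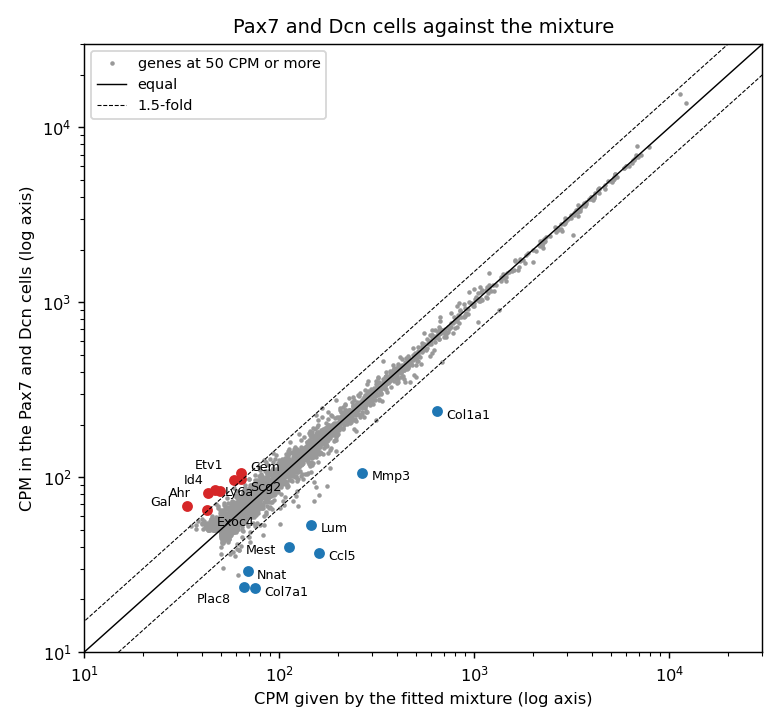
CPM in the 201 Pax7 and Dcn cells (y axis) against the CPM that the fitted mixture gives (x axis), both on log axes, with the 8 genes farthest above in red and the 8 farthest below in blue. Most genes lie between the dashed 1.5-fold lines, Ahr and Scg2 lie above them, and Col1a1, Mest and Ccl5 below.

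The genes farthest above the mixture included the aryl hydrocarbon receptor Ahr, the ETS factor Etv1, the inhibitory helix-loop-helix factor Id4, the small GTPase Gem, the secretogranin Scg2 and the surface protein Ly6a (Sca-1). Ahr stood at 80.7 CPM (72.3 to 89.8) where the mixture gave 43.3, a ratio of 1.87 (1.67 to 2.08), and at 31.8 and 45.7 CPM in the Pax7 and Dcn sets. Etv1 stood at 96.1 CPM where the mixture gave 58.7, a ratio of 1.64 (1.48 to 1.81), and at 65.1 and 57.3 CPM in the sets. Both genes were therefore above the higher of the sets, though Etv1 by less than 1.5-fold. Scg2 (chromosome 1, 79434669 to 79440120) stood at 106 CPM (96.6 to 117) against 63.5 CPM, a ratio of 1.67, Ly6a at 84.3 against 47.1 CPM, a ratio of 1.79, Id4 at a ratio of 1.68 and Gem at 1.54. Scg2 was found in 45.3% of the 201 cells, 28.2% of the Dcn set and 10.6% of the Pax7 set. Within the 201 cells Scg2 stood at 228 CPM with 3 to 4 Dcn UMIs, 81.7 CPM with 5 to 11 and 64.8 CPM with 12 or more. The Dcn set, which asks for at least 5 Dcn UMIs, stood at 72.4 CPM. The high level of Scg2 thus lay in cells with 3 to 4 Dcn UMIs, a range that the Dcn set leaves out. The 5 highest cells held 9.77% of the Etv1 UMIs, 15.5% of those of Ahr and 17.2% of those of Gem, but 26.1% of those of Id4, 30.9% of those of Ly6a and 31.5% of those of Scg2. Gal had the highest ratio, 2.04, but 5 cells held 56.3% of its UMIs, and the ratio turned to a log2 value of -0.17 with the rule applied to thinned counts.

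Ahr, Scg2, Etv1 and Id4 differed in summed level between 3 groups of cells near the Dcn profile. Ahr stood at 46.2 CPM (40.5 to 52.4) in the 286 Dcn-set cells under a weight of 0.25, 103 CPM (90.6 to 116) in the 141 cells and 172 CPM (147 to 201) in 53 Pax7-set cells under 0.25, which hold no Dcn UMI. Scg2 stood at 62.2 (55.6 to 69.4), 115 (102 to 129) and 220 CPM (191 to 252) in the same order. Etv1 stood at 58.9, 107 and 143 CPM and Id4 at 54.3, 93.96 and 147 CPM. Ly6a stood at 59.9, 119 (105 to 133) and 128 CPM (106 to 153), so its intervals in the 141 and the 53 cells overlap. In the Pax7-set cells above 0.75 Ahr stood at 19.9 and Scg2 at 4.80 CPM, so both were low in the bulk of that set. Twist2 ran in the reverse order, at 191, 150 and 48.9 CPM, and so did Col1a1, at 859, 248 and 122 CPM. The median depths of the 3 groups were 16860.5, 16113 and 16658 UMIs, and Scrublet called 0 cells in each. The ranges and the genes were chosen after their values had been seen. The groups were set by counts of Pax7 and Dcn, with which these genes differ, so the order is a description. Their Dcn limits were also unlike: the Dcn set asks for at least 5 Dcn UMIs, while the 141 cells include some with 3 to 4. Over the 201 cells Scg2 stood at 228 CPM in that range, and at 81.7 and 64.8 CPM with 5 to 11 and 12 or more. How far the order rests on these limits was not tested.

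**Figure D5:**
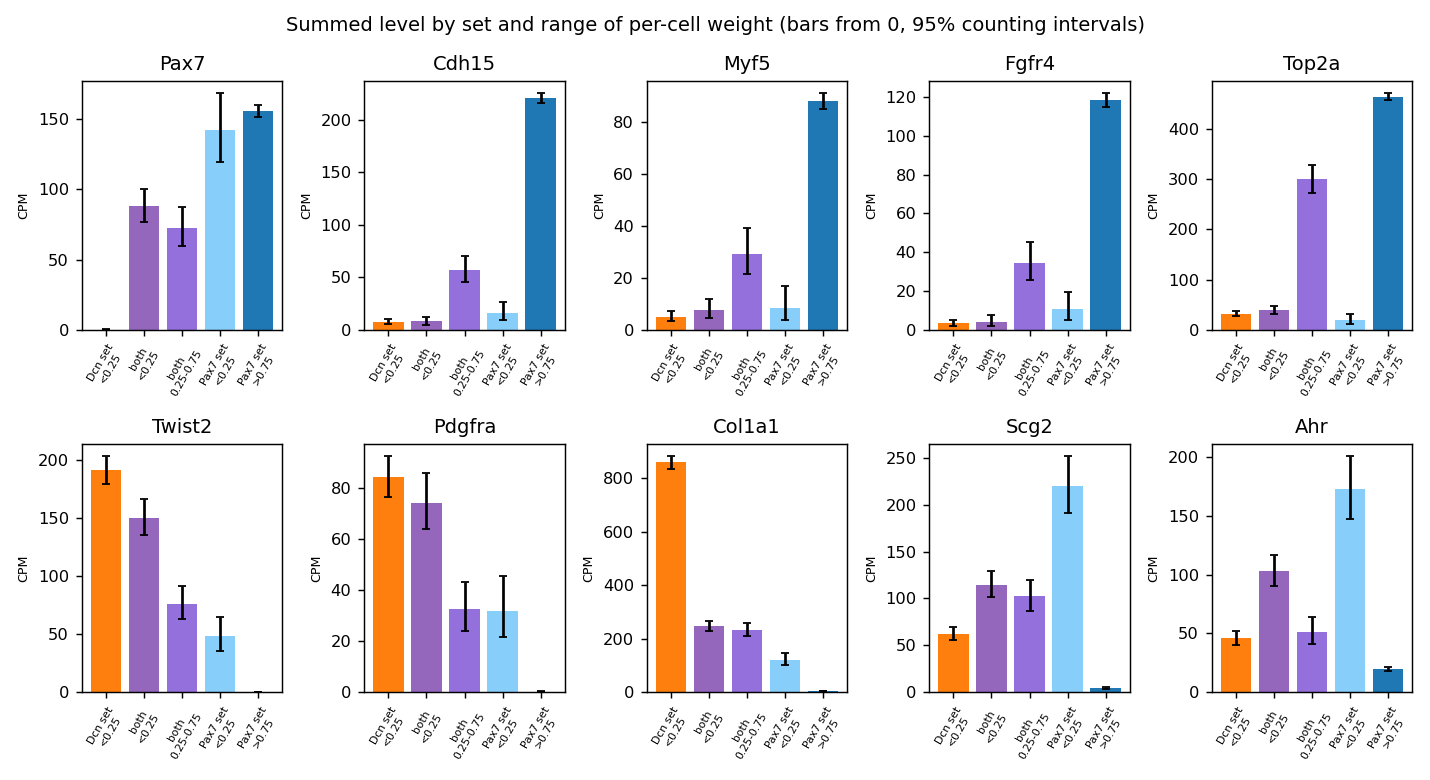
CPM of 10 genes (y axes from 0, bars with 95% exact Poisson intervals) in Dcn-set cells under a weight of 0.25, Pax7 and Dcn cells (labelled both) under 0.25 and from 0.25 to 0.75, and Pax7-set cells under 0.25 and over 0.75. Pax7 was 87.9 CPM in the second bar where Cdh15 was 8.10 CPM, and Scg2 and Ahr were highest in the fourth. By the rule each Pax7 and Dcn cell had at least 1 Pax7 UMI, and the weight was fitted from Cdh15 among other genes.

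The genes farthest below the mixture included the collagens Col1a1 and Col7a1, the imprinted genes Mest and Nnat and the chemokine Ccl5. Col1a1 stood at 238 CPM (223 to 253) where the mixture gave 643 CPM, a ratio of 0.370 (0.347 to 0.394), and Col7a1 at 23.1 against 75.1 CPM, a ratio of 0.308. Of the 201 cells, 45.3% held Col1a1, against 68.0% of the Dcn set. Mest stood at 39.8 against 113 CPM, a ratio of 0.353, and Nnat at a ratio of 0.421. Both are highest in the Pax7 set, so they lay closer to the Dcn set than Cdh15, Fgfr4 and Myf5 did. Lum, Mmp3 and Ccl5 had ratios of 0.366, 0.396 and 0.230, and each is carried by few cells: of 153 Ccl5 UMIs in 6 of the 201 cells, 140 lay in a single cell. Cdh15 had a ratio of 0.716 (0.5995 to 0.847), Fgfr4 0.790 (0.621 to 0.990), Myf5 1.06 (0.847 to 1.31) and Myod1 1.13 (0.932 to 1.37), so none of these 4 passed 1.5-fold.

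In the MEF library such cells were nearly absent. Under the same rule 1 of 5382 MEF cells of the same minimum depth qualified, with 1 Pax7, 4 Dcn, 0 Myf5 and 0 Cdh15 UMIs, although 2151 MEF cells met the rule of the Dcn set. Against MEF, 418 of 3299 genes (12.7%) were at least 2-fold higher in the 201 cells and 450 (13.6%) lower. Scg2 stood at 106 against 0.152 CPM, Ahr at 80.7 against 0.373 CPM and Cyp26b1 at 142 against 1.07 CPM, while the Dcn set had 72.4, 45.7 and 237 CPM. Acta2, the smooth muscle actin, stood at 386 against 6109 CPM. The MEF matrix listed 6113 barcodes and the iMPC matrix 6794880, and how the former were selected is not given in the sources used here. The cultures also differed in medium, so medium and conversion cannot be told apart in these differences.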

How the data were processed

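Each deposited matrix gives raw counts of UMIs, and its header names Cell Ranger as the program that made it. The submitters' processing notes name Cell Ranger 4.0, Seurat 3.2.3 and GRCm38.p6, and the annotation is not given in the sources used here. Both libraries were used over the 26100 features they share, and 24 features of the MEF matrix with 248014 UMIs were left out. Positions came from GENCODE M21.

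The members, gene lists and comparisons were chosen with earlier results of these data known. UMIs were summed over cells and given as CPM, and intervals are exact at 95% (Poisson, conditional or Clopper-Pearson). Named genes were those of the rule, Pdgfra and Twist2, list examples, the 10 largest ratios in each direction against each set and the 8 largest from the mixture, at 50 CPM or more. Other named genes were picked after their values were seen. Weights were maximum-likelihood, with 0.5 added to each reference count and a step of 0.01 for single cells. The fit was tested on simulated data, and genes that depart from the mixture also enter it. Doublets were scored with Scrublet (scanpy 1.11.5) and kept. For shares, cells were also thinned to the minimum depth of about 8000 UMIs. Python 3.11.15, numpy 2.4.6 and scipy 1.17.1 were used. Alternatives changed filters, rule thresholds, depth, doublets, scaling, free RNA and the minimum level.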

Additional observations from a re-analysis of the deposited data

How the results depend on the processing

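With 1 library a culture, no replicate could be left out. No paired analysis was possible because each group is 1 library. The number of cells, 201, became 170 at 12000 or more UMIs, 166 without the 10% highest doublet scores, 80 with the rule applied to thinned counts, 153 with Dcn at 5 or more, 90 with Pax7 at 2 or more and 143 with no Myog. In that order the summed weight of 0.180 became 0.189, 0.0714, 0.0701, 0.141, 0.279 and 0.162, and it was 0.161 without called doublets, 0.0892 at 20000 or fewer UMIs and 0.122 over genes 2-fold apart between the sets. The share of weights between 0.25 and 0.75, 27.4%, became 16.3%, 13.8%, 37.8% and 15.7% without the highest doublet scores, with thinned counts, with Pax7 at 2 or more and at 20000 or fewer UMIs.

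Genes past 2-fold against the Pax7 set, 687, became 1760 with a minimum of 10 CPM. Against the Dcn set 29 became 62 with Pax7 at 2 or more, 46 without mitochondrial and ribosomal protein genes in the total and 173 with a minimum of 10 CPM (94 higher, 79 lower), and the split was 5 higher to 28 lower with thinned counts and 8 to 25 at 20000 or fewer UMIs. Genes 1.5-fold from the mixture, 44, became 68, 101, 112, 69 and 295 without the highest doublet scores, with thinned counts, at 20000 or fewer UMIs, under that other total and with a minimum of 10 CPM. Median UMIs became 19244.5 at 12000 or more UMIs, and the matrix list against MEF -0.12 under the other total. The list of TGF-beta targets reversed against the Pax7 set at 20000 or fewer UMIs (log2 -0.017), and Gal reversed with thinned counts against the Dcn set (-0.14) and the mixture (-0.17). The causes were not tested. The settings for the Pax7 to Cdh15 ratio were chosen after seeing the data. At 5000 or more UMIs Scrublet called 0.0103% of kept cells, so it had not worked there and its share is not given.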

Other observations

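A few Pax7-set cells resembled the Dcn set without a Dcn UMI. They numbered 53 of 1776 (2.98%, exact interval 2.24 to 3.89) at a weight under 0.25, with a median of 16658 UMIs and 0 called by Scrublet. Their fibroblast matrix list summed to 12887 CPM, against 14879 CPM in the 141 Pax7 and Dcn cells of that range and 4472 CPM in Pax7-set cells above 0.75. Hes1, a Notch target, stood at 246 CPM in the 53 cells, 149 CPM in the 141 cells and 127 CPM in the Pax7-set cells above 0.75, and Hey1 at 36.1, 10.1 and 61.9 CPM. Their G2/M list summed to 107 CPM, against 284 and 2840 CPM. Sfrp4, a secreted Wnt antagonist, stood at 32.9, 10.5 and 0.630 CPM. Since these cells are part of the Pax7 reference profile, the fitted mixture holds them too.

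Immediate early and stress genes summed to 1593 CPM in the 201 Pax7 and Dcn cells, 1093 CPM in the Pax7 set, 1865 CPM in the Dcn set and 328 CPM in MEF. Cdkn1a, an inhibitor of the cell cycle, stood at 787 CPM in the 201 cells, 365 CPM in the Pax7 set and 736 CPM in the Dcn set.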
